A study of Drosophila melanogaster with 15 samples.

Results

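The proteasome is the barrel-shaped protease that degrades ubiquitin-tagged proteins. Its core particle stacks rings of alpha subunits, which gate the entry of substrates, on rings of beta subunits, some of which carry the cutting sites. A regulatory cap sits on the core: its base holds the Rpt ATPases, which unfold substrates, and the scaffold and ubiquitin receptor subunits, and its lid holds the enzyme that removes ubiquitin. In *Drosophila* several subunits have a paralogue made from a separate gene, and the alpha paralogues whose names carry a T are known from testis.

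The genes described here are those with FlyBase symbols that begin with Prosalpha, Prosbeta, Rpn or Rpt, matched by FlyBase identifier to 3 isoform assemblies of the fly. There were 48 such genes among 13986 annotated protein-coding genes, 32 of them main subunits and 16 paralogues with a T or R after the subunit number. They lay on 5 chromosome arms, with 14 on 3R, 13 on 2R, 8 on 2L, 7 on 3L and 6 on X. The rule used the symbols and no measured value, and it was proposed with earlier results of these data known.

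Full-length cDNA from polyadenylated RNA was read on nanopore devices in 15 libraries of untreated wild-type w1118 flies. Heads came from 3-day-old adults (6 libraries; the study's methods give both sexes in equal amounts), ovaries from 3-day-old virgin females (3 libraries of 20 ovaries each), and embryos were 14 to 16 h or 18 to 20 h old (3 libraries per age, 50 embryos each). cDNA over 3 kb was selected in all libraries except 2 of heads. The reads of a tissue were pooled over its libraries, and over both ages for embryos, before assembly, so each tissue gave a single set of isoforms and no difference below has a replicate error or a test. Intervals are 95% Wilson intervals and cover only the sampling of genes or isoforms.

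The heads assembly held 74482 isoforms, that of embryos 20701 and that of ovaries 13398, and the number of reads behind an isoform was not in the files. The study's methods give more reads for heads than for either other tissue, so a gene missing from an assembly was not detected there, which is not the same as not expressed. Markers of neurons and photoreceptors had isoforms for 6 of 6 genes in heads, for 4 in the embryo assembly and for 1 in ovaries. Of 6 ovary markers, 5 were found in ovaries, 2 in heads and 1 in the embryo assembly. All 5 late embryo markers were found in embryos and also in heads, so that list did not set the embryo assembly apart. The ovary marker *vas* had no isoform under its own identifier in any assembly. Counted by position, *vas* had 1 isoform in ovaries, and *Vm26Aa* had 0 there instead of 3.

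Nearly every main subunit was recovered from heads and ovaries, whereas the embryo assembly lacked 12. Isoforms were found for 31 of 32 main subunits in heads, 30 in ovaries and 20 in embryos. Over all 48 genes, 44 were present in heads (79.8% of all protein-coding genes were), 31 in ovaries (47.3%) and 20 in embryos (46.2%). Presence was nested: each of the 20 genes found in embryos was also found in heads and ovaries, and each of the 31 found in ovaries was found in heads. No subunit was found only in embryos (1.87% of all genes present anywhere) or only in ovaries (2.12%). Genes found in all 3 assemblies made up 20 of the 44 present anywhere, beside 38.4% of all genes present anywhere. The cytoplasmic ribosomal protein genes, a larger set for another complex that all cells use, were in all 3 assemblies for 77 of the 89 present anywhere. The counts were 28 of 37 for mitochondrial complex I genes and 12 of 28 for vacuolar proton pump genes.

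**Figure D1:**
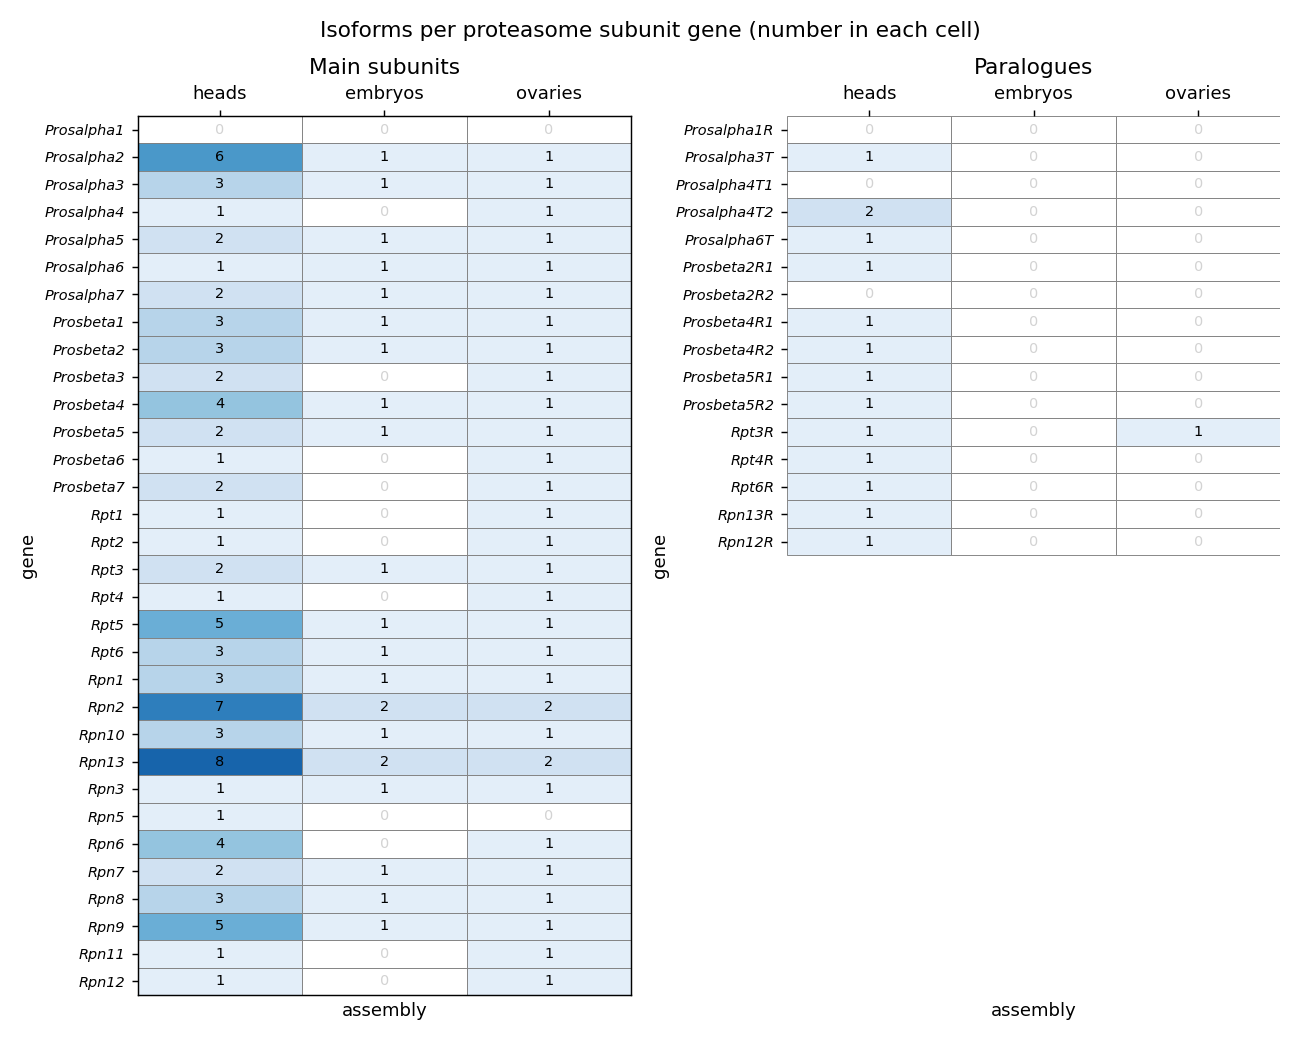
Grid with 1 row per main subunit or paralogue and 1 column per assembly (heads, embryos and ovaries). Each cell gives the number of isoforms, with 1 pooled assembly per tissue and no error bars. Heads reached 8 isoforms in *Rpn13*, whereas embryos and ovaries had at most 2, and paralogues were found in heads with 1 or 2 isoforms.

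The missing embryo subunits came from both rings of the core and from the cap. Of the alpha ring, 5 of 7 main subunits were found in embryos, 6 in heads and 6 in ovaries, and *Prosalpha4* (chrX:16276270-16277587) had 1 isoform of 1175 nt in heads and in ovaries and none in embryos. Of the beta ring, all 7 were found in heads and in ovaries and 4 in embryos. The embryo set held *Prosbeta1*, *Prosbeta2* and *Prosbeta5*, the subunits with the caspase-like, trypsin-like and chymotrypsin-like sites, and *Prosbeta4*, which has no cutting site. It lacked *Prosbeta3*, *Prosbeta6* and *Prosbeta7*, which have none either.

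Among the 6 Rpt ATPases, embryos held *Rpt3*, *Rpt5* and *Rpt6* and lacked *Rpt1*, *Rpt2* and *Rpt4*, while heads and ovaries held all 6. The base subunits that are not ATPases were complete everywhere: *Rpn1* and *Rpn2*, the large scaffolds, and *Rpn10* and *Rpn13*, the ubiquitin receptors, were present in all 3 assemblies. Of 8 lid subunits, 4 were found in embryos. Missing there were *Rpn5*, *Rpn6*, *Rpn12* and *Rpn11*, the deubiquitinase (chr2L:5058404-5059790), which had an identical length of 1207 nt and 1 isoform in both heads and ovaries. *Rpn5* (chr3R:5789493-5791569) was the only main subunit found in a single assembly, with 1 isoform of 2005 nt in heads.

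In all, 10 main subunits were in heads and ovaries and not in embryos. Of all genes in heads and ovaries, 28.5% were missing from embryos, close to the 10 of 30 main subunits. Counting by position instead of identifier placed *Rpt1* in embryos, through an isoform of another gene, CG17985, that covered its exon. That isoform had 2 exons and ran from chr2R:7651626 to 7655302, past both ends of *Rpt1* (7652440 to 7653954). Isoforms of CG17985 covered *Rpt1* in heads too, beside an isoform under the *Rpt1* identifier. The overlap therefore cannot tell whether *Rpt1* itself was present in embryos. *Prosalpha1* (chr2R:7827303-7828678), an alpha ring subunit, had no isoform in any assembly. Its annotated coding sequence is identical to that of *Prosalpha1R* over 735 of 735 bases and its mRNA over 952 of 952, and *Prosalpha1R* had no isoform either. The part of this identity in their absence was not tested.

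Across the genome, detection in embryos varied with mRNA length, and subunit mRNAs are short. The longest annotated mRNA of main subunits ranged from 815 to 3412 nt with a median of 1304 nt. Of all genes found in heads, 25.9% of those under 1000 nt, 35.1% of those from 1000 to 1500 nt, 46.8% of those from 1500 to 2000 nt and 89.2% of those of 3000 nt or more were also found in embryos. Main subunits were found at 6 of 9, 8 of 12 and 4 of 8 in the first 3 classes, with intervals of 35.4% to 87.9%, 39.1% to 86.2% and 21.5% to 78.5%, and at 2 of 2 in the longest class. Subunit shares in the first 2 classes were above those of all genes, whose intervals were 24.1% to 27.7% and 33.0% to 37.2%. The 11 main subunits found in heads and not in embryos had a median mRNA of 1215 nt, beside 1398.5 nt for the 20 found there. In ovaries 9 of 9, 12 of 12 and 7 of 8 main subunits were found, against 33.8%, 52.2% and 59.4% of all genes. The part of length selection in which subunits were missing was not tested.

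**Figure D2:**
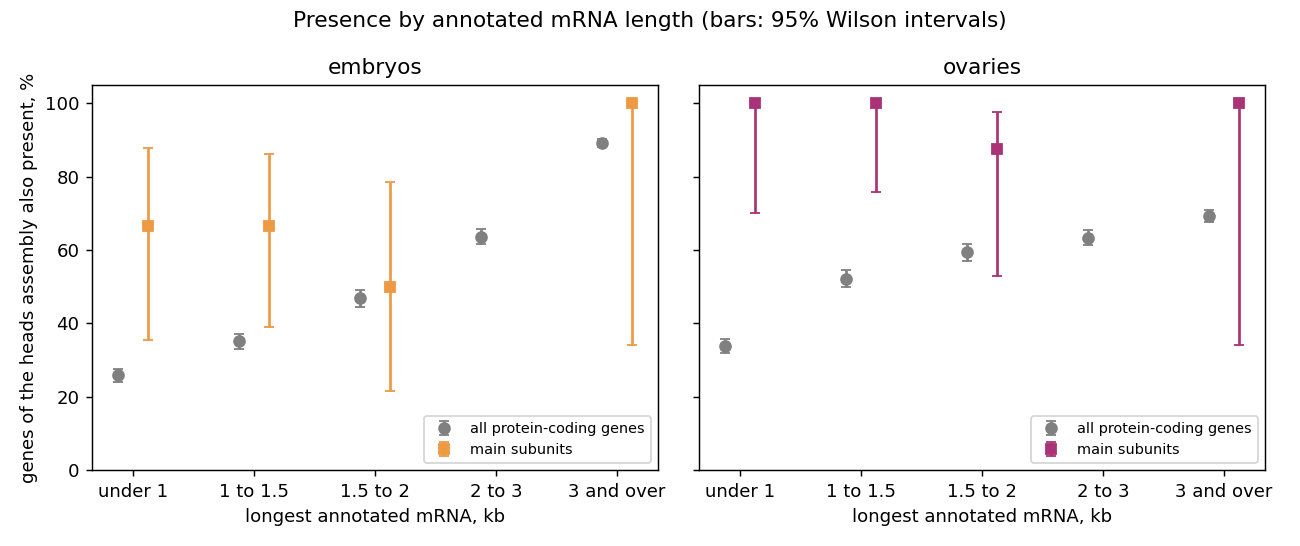
Percentage of genes present in heads that were also present in embryos or ovaries, by class of longest annotated mRNA (nt), for all protein-coding genes and main subunits; bars are 95% Wilson intervals over genes. Under 1000 nt, 6 of 9 main subunits were in embryos beside 25.9% of all genes, and 9 of 9 were in ovaries beside 33.8%.

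Paralogues were found almost solely in heads. Isoforms were present for 13 of 16 paralogues in heads, 0 in embryos and 1 in ovaries, and 12 were in heads and no other assembly, beside 27.4% of all genes present anywhere. These were *Prosalpha3T*, *Prosalpha4T2* and *Prosalpha6T* of the alpha ring, *Prosbeta2R1*, *Prosbeta4R1*, *Prosbeta4R2*, *Prosbeta5R1* and *Prosbeta5R2* of the beta ring, *Rpt4R* and *Rpt6R* of the ATPases, and *Rpn12R* and *Rpn13R* of the rest of the cap. *Prosalpha4T2* had 2 isoforms of 1253 and 1433 nt, the longer of which retained an intron, and each of the others had 1. The paralogues without isoforms were *Prosalpha1R*, *Prosalpha4T1* and *Prosbeta2R2*.

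Markers of testis and gut, tissues that were not sampled on their own, were counted beside the paralogues. Isoforms were found for 7 of 9 testis markers in heads and for 0 in embryos and 0 in ovaries. In heads *dj* had 5, *Mst87F* 2, *ProtA* 2, *ProtB* 2, and *aly*, *twe* and *Mst98Ca* 1 each, while *can* and *betaTub85D* had 0 under their own identifiers. Counting by position gave *betaTub85D* 1 isoform in heads and 1 in embryos, and gave *dj* 4 in heads instead of 5. Gut markers were found for 3 of 3 genes in heads, for 1 in the embryo assembly and for 0 in ovaries. One of them, *alphaTry*, had 2 isoforms in heads under its identifier and 0 by position. Over all protein-coding genes the shares were the 79.8%, 46.2% and 47.3% given above. The part of these tissues in the presence of the paralogues in heads was not tested.

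*Rpt3R* (chr3R:9754735-9756510), a paralogue of the ATPase *Rpt3*, was the only paralogue in 2 assemblies. Its heads isoform measured 1480 nt and its ovary isoform 1321 nt. Both began at the same base and kept the coding sequence, and the heads isoform ended 159 nt further downstream, with a 3′ UTR of 211 nt against 52 nt.

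Paralogue genes differed in sequence from their main subunits, apart from *Prosalpha1R*, and whether their reads could be told apart was not tested. Identity of the coding sequences over aligned bases ranged from 58.4% for *Prosbeta4R1* to 78.2% for *Rpt6R*. *Prosalpha4T1* at 77.0%, *Rpt3R* at 77.3% and *Rpt4R* at 75.1% were near the top of this range, and *Prosbeta2R2* at 59.7% near its foot. *Prosalpha3T* and *Prosalpha6T* have 1 exon each, whereas *Prosalpha3* and *Prosalpha6* have 3, and *Rpn13R* has 1 exon where *Rpn13* has 4. A single exon leaves no splice site to set the strand of an isoform, and the *Prosalpha3T* and *Rpn12R* isoforms were recorded on the strand opposite to their gene. Counted by position on the gene's own strand, both were lost from heads, which left 10 paralogues in heads alone. The same count removed the single-exon *Prosbeta3* and *Rpn7* from heads and *Prosbeta3* and *Rpt1* from ovaries.

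A stretch of 30 bases around the poly(A) signal is shown for 5 genes found in heads alone that had such a signal, because it lies at their recorded 3′ ends. Neither AATAAA nor ATTAAA was within 50 nt upstream of the ends of 6 others of the 13, *Prosalpha3T*, *Prosbeta2R1*, *Prosbeta4R1*, *Prosbeta5R1*, *Rpn12R* and *Rpt6R*. Capitals mark the AATAAA or ATTAAA nearest to the 3′ end, the sequence read by the cleavage machinery. Positions are dm6 and sequences are from the RefSeq copy of that genome.
*Prosalpha6T* (chr2L:13233172-13233201, plus strand): gaacctaatcggATTAAAataatggaaaca
*Prosbeta4R2* (chr2L:2656153-2656182, plus strand): aaagcggaaaacATTAAAgccatgctcggt
*Prosbeta5R2* (chr2L:17991459-17991488, plus strand): ttaagaccatcaAATAAAtgctgttgactt
*Rpt4R* (chr3L:11943448-11943477, plus strand): aatattatgatgATTAAAgatatataattt
*Rpn5* (chr3R:5791548-5791577, plus strand): atgaatccccccATTAAAtctccatgcaat
The last base of the signal lay 17 bases before the recorded 3′ end in *Prosalpha6T*, 20 in *Rpt4R*, 25 in *Prosbeta5R2*, 42 in *Prosbeta4R2* and 4 in *Rpn5*.

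Subunits had most isoforms in heads, as did all genes. The subunit genes had 98 isoforms in heads, 33 in ovaries and 22 in embryos, beside 68290, 12689 and 18449 over all protein-coding genes. Several isoforms were found for 22 of 44 genes present in heads (60.5% of all present genes), 2 of 20 in embryos (40.7%) and 2 of 31 in ovaries (32.8%). In heads the main subunits with several isoforms were 21 of 31, or 67.7%, and the paralogues 1 of 13. The ubiquitin receptor *Rpn13* had 8 isoforms in heads, the scaffold *Rpn2* 7, *Prosalpha2* 6, the lid subunit *Rpn9* 5 and the ATPase *Rpt5* 5. *Rpn2* and *Rpn13* were also the genes with several isoforms in embryos and in ovaries, with 2 each. By part of the complex, the 4 base subunits that are not ATPases had 21 isoforms in heads, the 8 lid subunits 18, the 7 beta subunits 17, the 6 alpha subunits present 15 and the 6 ATPases 13.

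The isoforms of *Rpn2* and *Rpn13* differed between tissues in different ways. *Rpn2* (chr3R:29153524-29157255) had isoforms of 3324 and 3411 nt in all 3 assemblies, which shared both ends and differed in an annotated intron of 87 nt upstream of the start codon. Heads added 5 shorter isoforms, of 2845 to 3165 nt, that ended inside the coding sequence. *Rpn13* had isoforms of 1389 and 1494 nt in embryos and ovaries, both with a 5′ UTR of 120 nt. All 8 isoforms of heads under the *Rpn13* identifier began 78 nt further upstream, so none was identical to one of the other tissues. A single-exon heads isoform without a FlyBase identifier, recorded on the opposite strand, overlapped 1594 nt of *Rpn13* exons. It reached chr2R:13960326, the recorded 5′ end of *Rpn13* in embryos and ovaries.

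Of the 20 genes in all 3 assemblies, 15 had an isoform with the same exons and the same ends to the base in each (55.4% of all genes in all 3 did), and *Prosalpha5*, *Rpn7*, *Rpn8*, *Rpn9* and *Rpn13* did not. Isoforms seen only in heads were 66 of 98, or 67.3%, beside 82.7% over all genes. Embryos added 1 of 22 (48.4% over all genes), the 1400-nt isoform of *Rpn7*. Ovaries added 2 of 33 (43.7%), the 977-nt isoform of *Prosbeta3*, a single-exon gene whose heads isoforms were 851 and 953 nt, and the 1321-nt isoform of *Rpt3R*. With a tolerance of 50 nt at 5′ ends, 150 nt at 3′ ends and 10 nt at splice sites, 17 of the 20 genes had a matching isoform in each assembly (65.9% over all genes), and the counts seen in 1 tissue were 61 for heads, 0 for embryos and 1 for ovaries, that of *Rpt3R*.

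Every subunit isoform of embryos and ovaries could encode the annotated protein, and a part of those of heads could not by the criterion of exact coding exons. The annotated coding sequence was kept by 64 of 98 isoforms in heads, or 65.3% (55.5% to 74.0%), beside 48.2% of the isoforms of all genes. It was kept by 22 of 22 in embryos (62.3% over all genes) and 33 of 33 in ovaries (83.2%). Of the 34 heads isoforms that did not keep it, 27 had an intron chain absent from the annotation and 7 had an annotated chain and stopped short within the coding sequence. The latter were 4 of *Rpn2* and 1 each of *Prosbeta2*, *Rpn9* and *Rpt5*.

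Intron retention made up most of the unannotated chains. The 27 such isoforms in heads (27.6% of 98, beside 64.2% over all genes) came from 15 genes, and none was found among the genes' isoforms in embryos (49.2% over all genes) or ovaries (25.2%). An annotated intron was retained in 25 of the 27, beside 67.8% of the unannotated chains of all genes in heads, and an exon was skipped in 3, namely 2 of *Prosalpha2* and 1 of *Rpn6*. The 25 introns retained were 53 to 265 nt long with a median of 74 nt, beside a median of 66.5 nt for the 74 annotated introns of the genes present in heads. Read from the annotated start codon, 26 of the 27 isoforms met a stop codon early, after 9 to 351 codons with a median of 81. The median reading frame of these 26 was 28.0% of the annotated one. Of all 34 heads isoforms that did not keep the coding sequence, they made up 76.5%. Over all genes in heads, 90.8% of such isoforms with an annotated start codon met an early stop.

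*Prosalpha2* (chr3R:12431321-12432556) illustrated this range. It had a single isoform of 896 nt in embryos and ovaries, and the same isoform in heads. The 5 other heads isoforms shared both of its ends. Retained introns of 64, 65 or 85 nt gave isoforms of 960, 961 and 981 nt, and skipped exons gave isoforms of 819 and 563 nt. Only 1 of 6 therefore kept the coding sequence. The corresponding counts were 2 of 7 for *Rpn2*, 2 of 5 for *Rpn9*, 2 of 5 for *Rpt5* and 6 of 8 for *Rpn13*.

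*Rpt6* (chrX:21316052-21317663), an ATPase, had the 1 isoform with an unannotated chain that met no early stop codon. Its intron of 63 nt, a multiple of 3, read through in frame to give 426 codons against 405 annotated, whereas its other retained intron, of 145 nt, led to a stop after 62 codons. The splice sites of retained introns in *Rpt6* and of the 3 *Prosalpha2* introns are printed for comparison, with the first 2 bases of the intron in capitals at the 5′ splice site and the last 2 at the 3′ splice site. Each intron began with GT and ended with AG, as the spliced ones do, and each line gives 15 bases on either side of the boundary.
*Rpt6*, 63-nt intron, 5′ splice site (chrX:21316181-21316210): acggtgacgaatcggGTatgtacatttgat
*Rpt6*, 63-nt intron, 3′ splice site (chrX:21316244-21316273): tccatgttttcgcAGatggaaatcgagtcg
*Rpt6*, 145-nt intron, 5′ splice site (chrX:21316389-21316418): agctcaatgctaaagGTaaatttactgtta
*Rpt6*, 145-nt intron, 3′ splice site (chrX:21316534-21316563): gcacgtcttttgcAGttcggatgctgcggg
*Prosalpha2*, 85-nt intron, 5′ splice site (chr3R:12431646-12431675): ccgtgggcattatagGTtagcatgccgcac
*Prosalpha2*, 85-nt intron, 3′ splice site (chr3R:12431731-12431760): ttttcttggctgtAGcttccaacggcgtcg
*Prosalpha2*, 65-nt intron, 5′ splice site (chr3R:12431987-12432016): gtacactcagtccggGTaagtgtgcgcgct
*Prosalpha2*, 64-nt intron, 5′ splice site (chr3R:12432208-12432237): tttcctggagaagcgGTaagtaccaataat
The 65-nt and 64-nt introns of *Prosalpha2* led to stops after 125 and 177 codons and the 85-nt intron to a stop after 40.

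**Figure D3:**
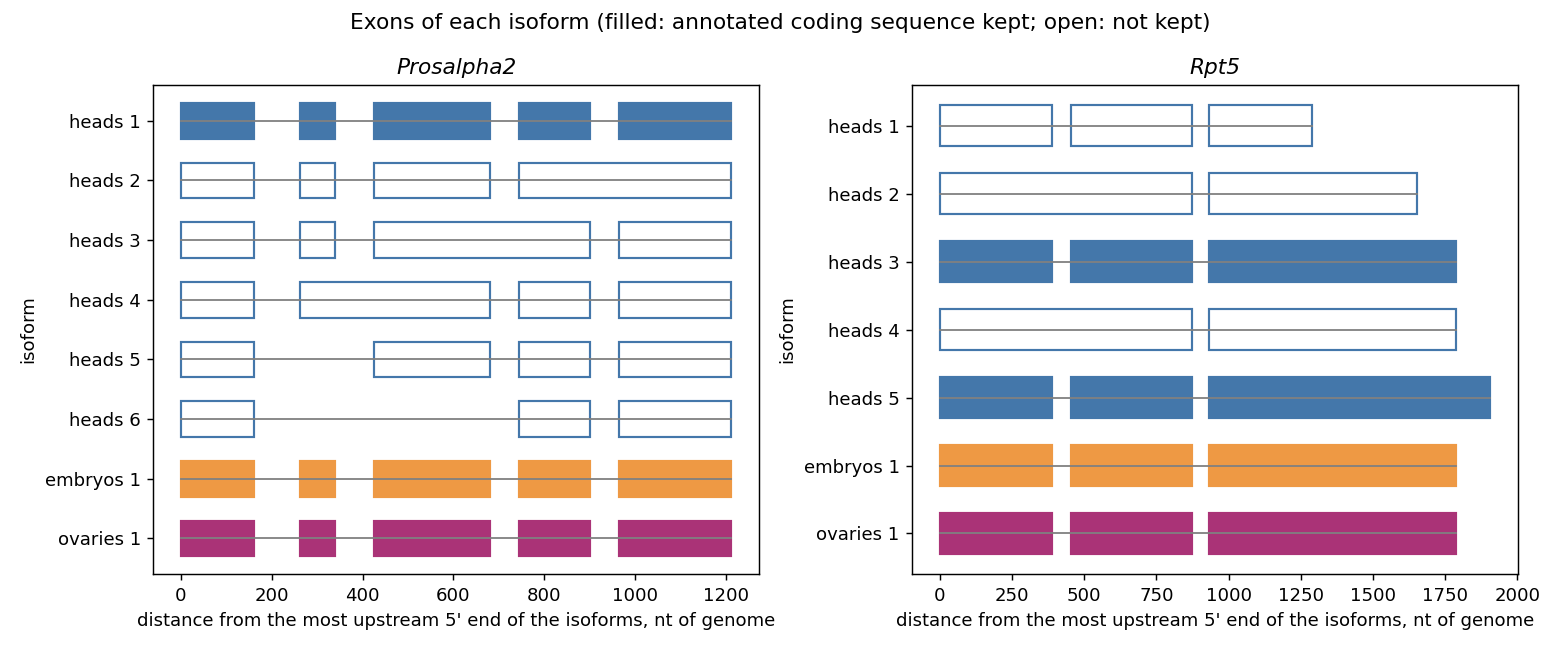
Exon models of every isoform of *Prosalpha2* and *Rpt5*, drawn to scale by distance from the most upstream 5′ end among the isoforms (nt), with boxes for exons and lines for introns. Embryos and ovaries show 1 isoform of each gene, 896 nt for *Prosalpha2* and 1668 nt for *Rpt5*, and heads show 6 and 5.

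Most subunit genes used 1 start and 1 end region. With 5′ ends over 50 nt apart counted as separate transcription start sites (TSSs), 2 of 44 genes had several in heads (16.7% of all present genes), and 0 in the embryo assembly (12.6%) and 0 in that of ovaries (8.25%). The TSSs of *Prosbeta7* (chr3R:5357012-5358364) lay upstream of the same coding exons and gave isoforms of 1214 and 1025 nt, with 5′ UTRs of 289 and 100 nt. Ovaries held the 1025-nt isoform only. *Rpn6*, a lid subunit, had 1 isoform of 1805 nt from its upstream TSS and its other isoforms from its downstream TSS, and ovaries held the 1918-nt isoform from the downstream TSS. Recorded 5′ ends lay at an annotated gene end in 95 of 98 isoforms in heads (98.3% over all genes), 22 of 22 in embryos (99.1%) and 32 of 33 in ovaries (98.7%), so the positions mostly repeat the annotation.

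Several polyadenylation sites (PASs; 3′ ends over 150 nt apart) were found for 10 of 44 genes in heads (37.7% of all present genes), for 0 in embryos (26.1%) and for 0 in ovaries (17.0%). *Rpn2* and *Rpn8* had 3, and *Prosalpha5*, *Prosbeta2*, *Prosbeta5*, *Rpn1*, *Rpn6*, *Rpn7*, *Rpn9* and *Rpt5* had 2. In *Rpn2*, *Prosbeta2*, *Rpn9* and *Rpt5* these included ends inside the coding sequence, and none of those had AATAAA or ATTAAA within 50 nt upstream.

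Subunit mRNAs had short 3′ UTRs in every tissue. Over isoforms that kept the coding sequence, 3′ UTRs were 17 to 1697 nt in heads with a median of 117 nt, 17 to 249 nt in embryos with a median of 98.5 nt, and 17 to 411 nt in ovaries with a median of 115 nt. The medians over all genes were 577, 622 and 397 nt. In heads the median was 159 nt for cytoplasmic ribosomal protein genes, 143.5 nt for mitochondrial complex I genes and 538 nt for vacuolar proton pump genes. In heads 55 of 64 such 3′ UTRs were 300 nt or shorter. The longer ones belonged to *Prosbeta5*, *Rpn1*, *Rpn6*, *Rpn8*, *Rpt5* and *Prosalpha4T2*, and the last of these, of 404 nt, ended at its own annotated end.

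**Figure D4:**
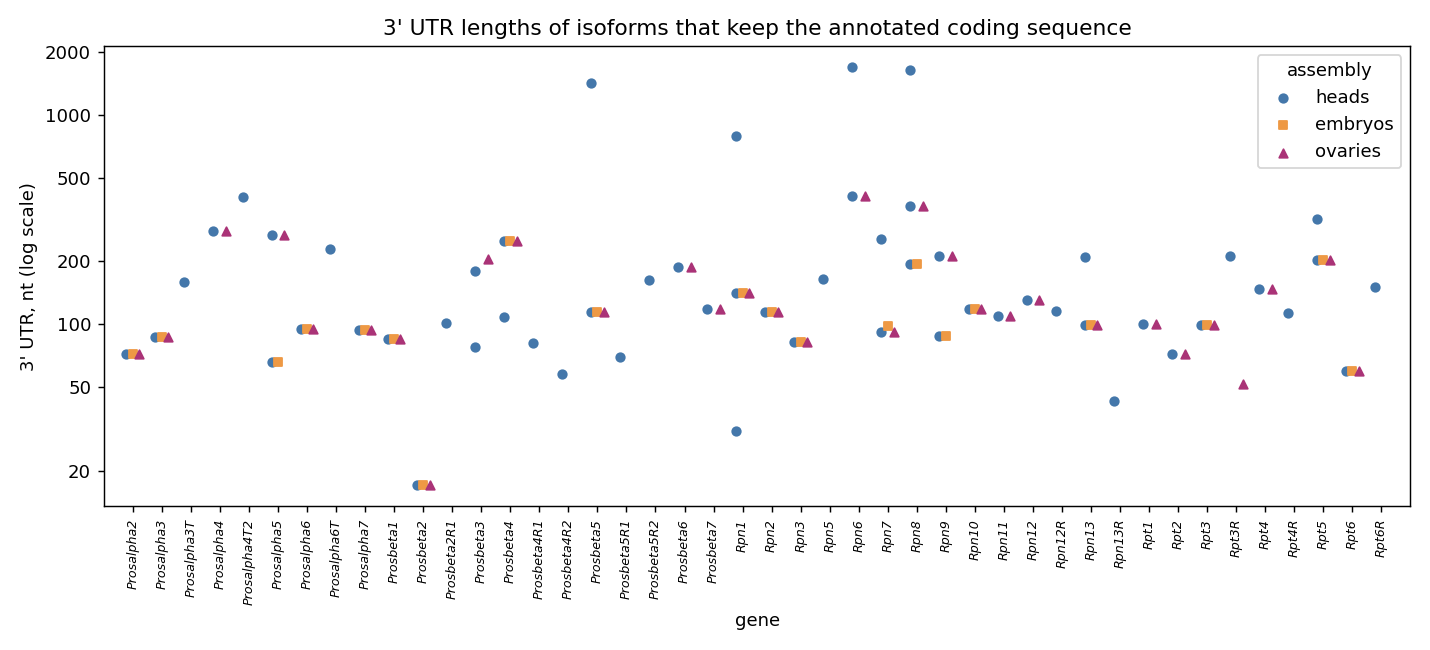
3′ UTR length (nt) of the isoforms that kept the annotated coding sequence, in heads (64 isoforms), embryos (22) and ovaries (33). Isoforms of a gene with the same length in a tissue share 1 point. Most points lay at or under 300 nt in each tissue, and the largest value, 1697 nt in heads, was an isoform of *Rpn6*.

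For most of the genes the most distal 3′ end was at the same base in each tissue. It lay over 150 nt further downstream in heads than in embryos for 5 of 20 genes (22.5% of all genes in both) and the reverse held for 0 (4.50%). Against ovaries it was further in heads for 6 of 31 (27.0%) and further in ovaries for 0 (2.34%). Between embryos and ovaries it was further in ovaries for 2 of 20 (7.38%) and further in embryos for 0 (15.3%). The shares further in heads were near those of all genes. Between embryos and ovaries the 2 subunits that differed lay further in ovaries, whereas over all genes more were further in embryos. Of 77 cytoplasmic ribosomal protein genes, 13 lay further in ovaries and 5 in embryos. The counts were 4 and 3 of 28 mitochondrial complex I genes, and 1 and 1 of 13 vacuolar proton pump genes.

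The extensions fell on neighbouring genes. *Rpn8*, the lid partner of *Rpn11*, ended 1454 nt further in heads than in embryos and 1279 nt further than in ovaries, and the extended part covered 1387 nt of SerT, annotated on the opposite strand with 8 isoforms in heads. *Rpn1* (chr3L:19915051-19918160) reached 650 nt past its end in embryos and ovaries, over 569 nt of Su(z)12 on the opposite strand. *Rpn6* reached 1286 nt further than in ovaries, over 943 nt of AttB on the opposite strand. *Prosbeta5*, the chymotrypsin-like subunit, ended 1301 nt further in heads than in the other tissues. Its extension ran through RpS15Ab on the same strand, which had 0 isoforms of its own in heads, and ended exactly at the annotated end of that gene.

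Smaller differences belonged to *Rpn7*, a lid subunit without introns, and *Prosalpha5*. *Rpn7* (chr3R:22460662-22462054) had heads isoforms of 1394 and 1558 nt, and its distal end was 158 nt further than in embryos and 164 nt further than in ovaries. The *Rpn7* isoforms of heads were recorded on the opposite strand, with ends read here on the strand of the gene. *Prosalpha5* ended at its annotated end in embryos and 201 nt beyond it in ovaries, and heads had both ends, with isoforms of 883 and 1084 nt. *Rpn8* likewise ended 175 nt further in ovaries than in embryos.

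Recorded 3′ ends lay exactly at an annotated end in 70 of 98 isoforms in heads (65.1% over all genes), 21 of 22 in embryos (64.9%) and 27 of 33 in ovaries (72.5%). In 21, 5 and 7 of them respectively the annotated end was that of another gene. The 3′ end of *Prosalpha2* was at chr3R:12432533 in all 3 tissues, the end of Aos1 on the opposite strand and 23 nt short of its own annotated end, and that of *Prosbeta2* matched Reck at 81 nt from its own. Matches to another gene's end covered 21.4% of the subunit isoforms in heads and 11.1% of those of all genes. The share in heads was 33.8% for mitochondrial complex I genes, 24.6% for vacuolar proton pump genes and 12.0% for cytoplasmic ribosomal protein genes.

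Poly(A) signals stood upstream of many of the PASs. AATAAA lay within 50 nt of 20 of 56 PASs in heads, or 35.7% (24.5% to 48.8%; 36.9% over all genes), 11 of 20 in embryos, or 55.0% (34.2% to 74.2%; 41.4%), and 14 of 31 in ovaries, or 45.2% (29.2% to 62.2%; 44.9%). Either AATAAA or ATTAAA lay there for 33 of 56 in heads (45.6% over all genes), 15 of 20 in embryos (49.0%) and 19 of 31 in ovaries (54.7%). The interval for both signals in embryos, 53.1% to 88.8%, was above the value over all genes, and that in heads, 45.9% to 70.8%, was just above it. Sites followed by 12 or more A in the next 20 genomic bases, where a primer could land on the genome-encoded run, numbered 2 in each assembly. That was 3.57% of the subunit PASs in heads, 2 of 20 in embryos and 6.45% in ovaries, beside 6.21%, 8.04% and 6.01% over all genes. The shared end of *Rpt5* in all tissues is shown with its signal in capitals.
*Rpt5* (chr3R:23754592-23754621, plus strand): caacctttttaaAATAAAcaaaaatatata
*Rpn2* (chr3R:29157219-29157248, plus strand): taattataacacAATAAAtggtcatcatat

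Promoters of main subunits often held the DNA replication-related element TATCGATA, the palindrome known to be bound by DREF in *Drosophila*. In windows of 250 bases before to 50 after the annotated gene start, searched on both strands, it was present in 12 of 32 main subunits, or 37.5% (22.9% to 54.7%), beside 9.36% of all 13945 promoters of the same length, 30.4% of ribosomal protein genes and 0 of 16 paralogues. The share from 100 bases before the start on was 25.0%, beside 7.63% of all promoters. The genes were *Prosalpha3*, *Prosalpha5*, *Prosalpha6*, *Prosbeta1*, *Prosbeta2*, *Prosbeta6*, *Rpn3*, *Rpn7*, *Rpn9*, *Rpn12*, *Rpn13* and *Rpt5*, from every part of the complex. TGACNNNGC, the core of the antioxidant response element to which Cnc and its small Maf partner are known to bind, was in 5 of 32, or 15.6% (8.63% over all genes). TATAAA was in 13 of 32, or 40.6% (45.8%), and CAGCTG in 1 of 32 (17.7%). A match describes letters in the window, not binding.

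Elements from 8 of the promoters are printed, with TATCGATA in capitals, to show their flanks. Positions are dm6, and each sequence is from the strand of the gene.
*Prosalpha6* (chr2L:10221324-10221353): cccgaatccctTATCGATAcccgatacaca
*Prosbeta2* (chr3L:14999930-14999959): ccatgaatataTATCGATAcaatatcgatt
*Prosbeta6* (chr3L:16610444-16610473): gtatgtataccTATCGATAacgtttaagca
*Rpn3* (chr2L:19051582-19051611): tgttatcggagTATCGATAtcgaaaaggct
*Rpn7* (chr3R:22462033-22462062): gcggtataattTATCGATAattttggggtc
*Rpn9* (chr3R:23733418-23733447): gcccggttaaaTATCGATAttctcgcggat
*Rpn12* (chr3L:16582801-16582830): ttgttaaaataTATCGATAttaaagcacaa
*Rpt5* (chr3R:23752819-23752848): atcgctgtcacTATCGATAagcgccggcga
The element began 10 bases before the gene start in *Prosbeta2*, 16 in *Prosalpha6*, 44 in *Prosbeta6* and 46 in *Rpt5*. It lay after the annotated gene start in *Rpn7* and *Rpn9*, and farther upstream in *Rpn3* and *Rpn12*. Recorded 5′ ends did not always lie at the gene start on which the windows were set. All *Rpn9* isoforms began at chr3R:23733011, whereas the gene starts at 23733462, so its element lay upstream of the recorded 5′ ends. Isoforms of *Rpn3* and *Rpn8* also began downstream of their gene starts.

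Other genes of the pathway showed the same order of detection, as did all protein-coding genes. Of 31 listed, 26 matched an annotated gene. Of these, 25 had isoforms in heads (79.8% of all protein-coding genes did), 24 in ovaries (47.3%) and 19 in embryos (46.2%). Those in heads and not in embryos were *REG*, a proteasome activator, *PI31*, a proteasome regulator, *rngo*, *maf-S*, *Plap* and *PSMG1*. *PI31* had 3 isoforms in heads and was found in no other assembly. *Pomp*, the maturation factor of the core, had 4 isoforms in heads and 1 in each other tissue, and *Sem1*, a small lid protein, had 1 in each. Single-exon isoforms without a FlyBase identifier had the same ends as an isoform of *Rpn1* and of *Rpn10* on their strand in heads (4.90% of all genes had one) and as those of *Prosbeta4R1*, *Rpn6* and *Rpt3R* on the opposite strand (2.03%). *cnc*, whose product activates proteasome genes, had 49, 11 and 9 isoforms in heads, embryos and ovaries. *TER94*, the unfoldase that hands substrates to the proteasome, had 0 isoforms under its identifier and 12, 2 and 2 by position.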

How the data were processed

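The deposited files were 3 tables of transcript and exon positions (GTF), with no read counts. According to the methods of the study and the labels, the authors merged the libraries of a tissue, aligned the reads to dm6 (minimap2) and assembled isoforms (FLAIR), which kept reads with a supported 5′ end and allowed several ends per isoform. The sources used here do not say whether the 3′ end filter of the study was applied to these files. The files hold no read depth, and the study states that heads were sequenced to a greater depth. No column of per-sample values was left unused (0).

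Identifiers, coding sequences and ends were taken from Ensembl release 115 of the same build, and bases from a RefSeq copy. The low coordinate of a transcript in the files was 1 base above the annotated one and was corrected before ends were compared. Single-exon isoforms were often recorded on the strand opposite to their gene (members 7 of 11 in heads, 0 of 1 in embryos and 2 of 4 in ovaries; all genes 51.5%, 32.2% and 40.8%), spliced ones never, and ends were read on the strand of the gene. Named genes were those absent from an assembly, all paralogues, the 5 with most isoforms per assembly, those with ends differing by over 150 nt and the 5 with the lowest share of coding isoforms in heads. Members and lists were chosen with earlier results of these data known. Counting was tested on simulated data for heads against embryos, with 200 of 200 genes recovered. Python 3.11.15, numpy 2.4.6, scipy 1.17.1, Biopython 1.88 and matplotlib 3.10.9 were used.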

Additional observations from a re-analysis of the deposited data

Results flagged for a closer look

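Signal outside the main measurement was found at subunit exons: 12 isoforms without a FlyBase gene identifier overlapped them, 10 in heads, 2 in embryos and 0 in ovaries, all with a single exon. In heads 7 lay on the strand opposite to the gene and 3 on the same strand. Those with ends identical to an isoform of the gene were on the opposite strand for *Prosbeta4R1*, *Rpn6* and *Rpt3R* (3 of 44 genes, beside 2.03% of all genes) and on the same strand for *Rpn1* and *Rpn10* (2 of 44, beside 4.90%).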

How the results depend on the processing

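No paired analysis was possible because each assembly pools all replicates and its columns carry none, and leaving out a replicate could not be run for the same reason. Of the 87 alternative values, 71 stayed within the tolerance and 16 moved. Requiring 2 or more isoforms left 22 genes present in heads, 2 in embryos and 2 in ovaries. A PAS window of 300 nt left 6 genes with several PASs in heads. For the distal 3′ end, 8 genes were further in heads than in embryos at over 75 nt, 3 at over 300 nt and 2 by the median end. By the median end 1 was further in embryos, 2 were further in heads than in ovaries and 1 further in ovaries. At over 300 nt, 0 were further in ovaries than in embryos. With promoters of 100 bases before to 50 after the start, TATAAA was in 21.9% (23.9% of all) and CAGCTG in 0% (12.0%). Reading ends on the strand in the files, chosen after seeing the data, gave 4 genes with several TSSs in heads, 1 further in embryos than in heads and 1 further in ovaries than in heads. Assigning isoforms by position removed *Prosalpha3T*, *Prosbeta3*, *Rpn7* and *Rpn12R* from heads and *Prosbeta3* and *Rpt1* from ovaries, and lowered the paralogues found in 1 assembly from 12 to 10. The cause was not tested. Depth could not be used to set limits.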
